A study of Homo sapiens with 20 samples.

Results

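The genes described here are 39 androgen-responsive genes outside the kallikrein family, chosen by symbol from textbook knowledge of genes that respond to androgen, among the 57773 genes of the count tables. Earlier results of these data were known when the list was made. They were measured by RNA-seq in LNCaP cells, an androgen-sensitive human prostate adenocarcinoma line, in 20 deposited samples from a pair of experiments. In the knockdown experiment, parental LNCaP cells received for 2 days 20 nM of an siRNA pool against EHMT1 (siEHMT1, 2 samples) or of a nontargeting pool (siNTC, 2 samples). In the overexpression experiment, 4 LNCaP lines carried a tetracycline-inducible EHMT1, either wild type (WT) or with the lysine-to-arginine change K450R, K451R or both (K450RK451R). Each line was kept for 2 days with 0.25 µg/mL doxycycline (Dox) or vehicle (Veh), with 2 columns of counts per condition. All cells grew in medium with serum, with no androgen withdrawn or added, and the stable lines kept their own EHMT1. Each EHMT1 form was represented by 1 line, and no line without an EHMT1 insert was treated with Dox, so an effect of Dox itself and of the induced EHMT1 cannot be told apart. EHMT1, also called GLP, is a histone lysine methyltransferase.

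Androgen switches on its target genes through androgen response elements in DNA, mostly in enhancers that pioneer factors such as FOXA1 have opened. In luminal prostate cells the hormone drives secreted and cell-surface proteins, lipid and amino sugar metabolism, and feedback regulators such as FKBP5, which modulates steroid receptor folding. Several of the 39 members, whichever way they respond to androgen, are used in the clinic or in pathology as prostate markers. Examples are FOLH1, which encodes prostate-specific membrane antigen, and TMPRSS2, whose promoter is often fused to ETS genes in prostate cancer.

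Promoter sequences are shown for 3 of the members that rose with Dox, C1orf116 and PMEPA1, which rose most, and MAF, whose estimated log2 ratios lay close together in the 4 lines. Windows of 300 bases from RefSeq (GRCh38.p14, 250 bases before and 50 after a start site) were found for 31 of the 39 members, 71 windows in all. The stretches below are the 250 bases before the start site on the minus strand, read 5′ to 3′, with motif matches in capitals. That of C1orf116 lies at chr1:207032757-207033006, that of MAF at chr16:79600738-79600987 and the second of 4 windows of PMEPA1 at chr20:57710578-57710827. Where a gene had several windows, the one with the most motif matches before the start site was shown, so the match in PMEPA1 decided the choice. The stretches of SLC45A3 and ACSL3, which also rose with Dox, held 0 matches and are not shown.
C1orf116: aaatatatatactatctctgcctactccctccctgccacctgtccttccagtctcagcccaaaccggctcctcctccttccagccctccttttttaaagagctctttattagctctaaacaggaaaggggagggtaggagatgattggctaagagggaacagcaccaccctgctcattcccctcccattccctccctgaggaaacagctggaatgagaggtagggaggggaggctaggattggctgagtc
MAF: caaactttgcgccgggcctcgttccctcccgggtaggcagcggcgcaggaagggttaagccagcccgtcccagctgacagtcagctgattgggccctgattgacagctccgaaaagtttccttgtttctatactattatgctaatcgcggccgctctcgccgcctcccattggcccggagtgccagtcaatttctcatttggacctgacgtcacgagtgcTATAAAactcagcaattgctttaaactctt
PMEPA1: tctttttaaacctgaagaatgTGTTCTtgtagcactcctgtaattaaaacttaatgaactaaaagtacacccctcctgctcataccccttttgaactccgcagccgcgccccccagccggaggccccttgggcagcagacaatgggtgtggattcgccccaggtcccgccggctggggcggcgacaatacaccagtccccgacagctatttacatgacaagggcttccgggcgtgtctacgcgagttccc
The capitals mark a TATA box (TATAAA) 30 to 25 bases before the MAF start site, and in PMEPA1 an androgen response half-site (AGAACA, here read as TGTTCT) starting 229 bases before it. The C1orf116 stretch held none of the motifs searched on both strands, which were these, a forkhead motif (TGTTTAC), an E-box (CACGTG) and a full element (AGAACA, any 3 bases, TGTTCT, which contains the half-site on both strands). The half-site was in 9.86% of the members' windows and in 14.8% of all 35116 windows. The TATA box was in 14.1% against 11.5%, the forkhead motif in 2.82% against 3.42%, the E-box in 12.7% against 7.26%, and the full element in 0 against 1 window. Windows of the same gene can overlap, and these shares describe the letters near start sites only. No window was found for TMPRSS2, FOLH1, ADAMTS1, ELL2, ZBTB16, SORD, TPD52 and OPRK1.

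Library totals ran from 5593400 to 12438006 counts in the siRNA samples and from 8436791 to 12407739 in the stable-line conditions, after the paired columns, which differed by counting noise only, were summed and counted as 1 sample. Nothing says that the numbered siRNA samples came from separate cultures, so their spread may be technical. EHMT1 was at 87.8 and 83.6 CPM (TMM-normalised counts scaled to library size) with siNTC and at 29.2 and 30.7 CPM with siEHMT1, and in the stable lines its level ranged over 71.7 to 88.9 CPM in Veh and 663 to 842 CPM in Dox. The luminal markers KRT8, KRT18, EPCAM, CDH1 and HOXB13 were present in every library. Of the markers of other cell types, the leukocyte gene PTPRC was at 0 throughout, as were KRT5 and TP63 of the basal list (KRT14 reached 1.52 CPM), COL1A2 of the stromal list and CHGA of the neuroendocrine list. The stromal genes VIM and COL1A1 were present, at 11.7 to 13.0 and 15.3 to 17.4 CPM in the siRNA samples and at 58.1 to 78.1 and 30.6 to 40.8 CPM in the stable lines, and so were the neuroendocrine genes ENO2 (22.4 to 34.8 and 228 to 417 CPM) and SYP (at most 2.00 CPM). Transcripts of 2 pseudogenes that resemble ribosomal RNA took 10.0% of the counts in siNTC replicate 2 and at most 1.00% in the other siRNA samples. The summed level of 10 hypoxia and density genes was 613 to 738 CPM in the siRNA samples and 4539 to 6586 CPM in the stable lines.

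All but 1 member were expressed in both experiments. MPPED2, a phosphodiesterase gene, had 2 counts in 1 siNTC sample, 1 count in WT Veh and none elsewhere, failed the filter on low counts and was not tested. The other 38 members were tested, 6 of them at under 10 CPM in the stable lines (EAF2, HPGD, INPP4B, OPRK1, SGK1 and STEAP4), where counts limit the precision. Per kilobase of exon, the highest mean levels with siNTC were those of SLC45A3 (the solute carrier prostein, 153 RPKM), STEAP1 (135 RPKM) and ABCC4 (an exporter of cyclic nucleotides and drugs, 72.8 RPKM). In Veh they were those of TMPRSS2 (169 RPKM), SLC45A3 (79.2 RPKM) and ABCC4 (78.3 RPKM). Between the tables, which were normalised separately, C1orf116 stood at 33.4 RPKM with siNTC and 4.44 RPKM in Veh, PMEPA1 at 37.4 and 7.49 RPKM, and MAF at 8.07 and 1.64 RPKM, a difference that was not tested. The 4 lines also differed from each other in Veh, where the highest line had 2.60 times the level of the lowest for MAF and 2.05 times for C1orf116.

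Induction of EHMT1 was accompanied by a rise of 6 of the 38 members, C1orf116, PMEPA1, TMPRSS2, MAF, SLC45A3 and ACSL3, and by a fall of none. This is 15.8% of the members, against 0.603% of all 14105 genes called higher (2.11% in either direction) by the same test, edgeR's quasi-likelihood test with line as a term and the 4 lines as replicates (adjusted p under 0.05). Because the members were chosen with earlier results of these data known, this contrast is a description and not independent support. The rises were moderate, from 1.16-fold to 1.69-fold. At an unadjusted p under 0.05, 9 members were higher (23.7%, against 6.86% of all genes) and 2 lower (5.3%, against 7.55%). Of the 38 members, 29 had a log2 fold change above 0, as did 7215 of all 14105 genes. The median was 0.078, against 0.0050 over all genes. Dox exceeded Veh in all 4 lines in 12 members (31.6%, against 10.7% of all genes) and fell below it in all 4 in 3 members, EAF2, ZBTB16 and GNMT (7.89%, against 10.1%). Well expressed genes are called more readily. Among genes of at least 10 CPM the share called higher was 0.826%, and all 6 called members were among the 32 members at that level. The calls of TMPRSS2, MAF, SLC45A3 and ACSL3 needed all 3 mutant lines. Without K450R, without K451R or without K450RK451R, only C1orf116 and PMEPA1 remained called (2 members each time), whereas without WT 8 were called, among them the same 6.

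**Figure D1:**
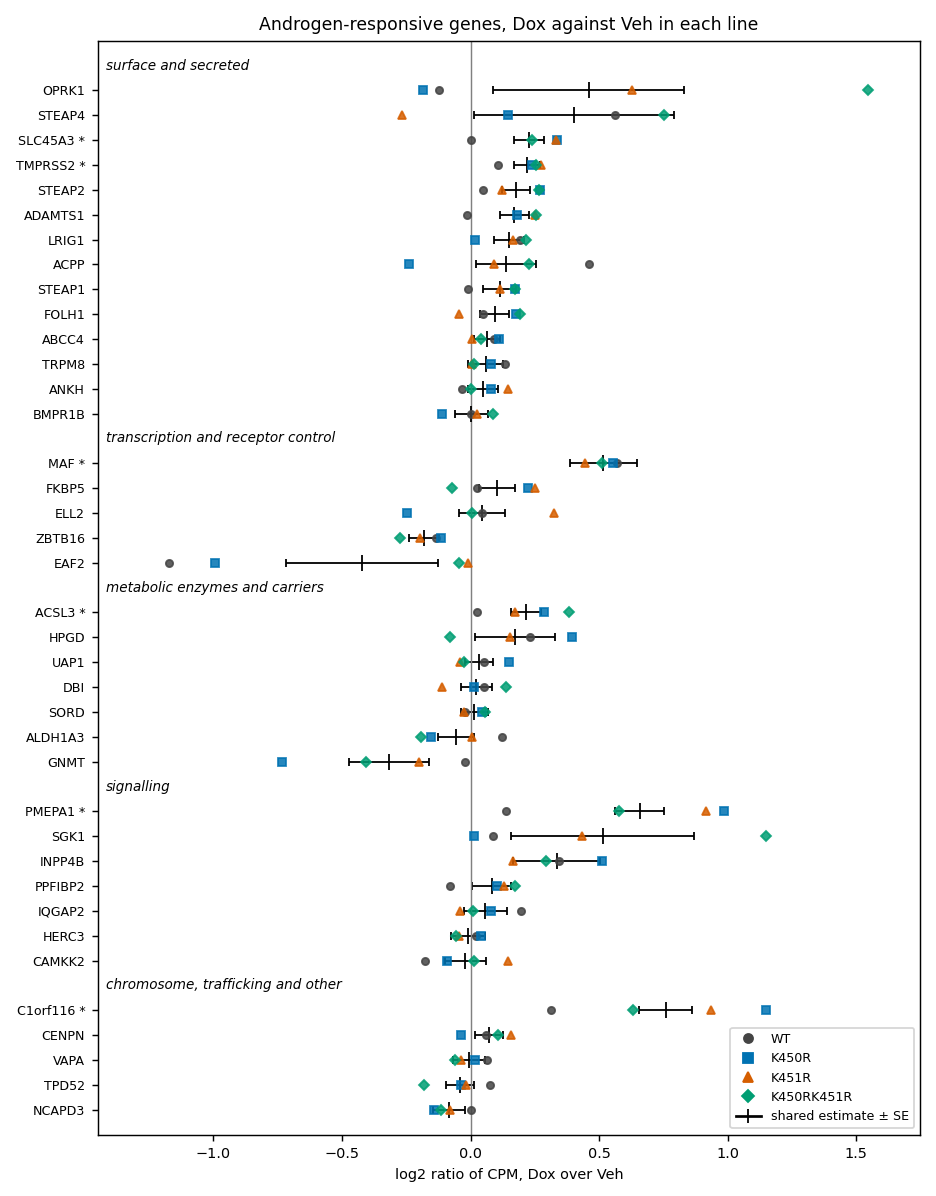
Log2 ratio of CPM in Dox over Veh (x axis) for the 38 tested members, grouped by role. Symbols are the 4 lines, the black tick and bar are the estimate shared by the lines with its standard error from edgeR, and asterisks mark the 6 members with an adjusted p under 0.05; C1orf116 and PMEPA1 lie farthest right among well expressed members, and their WT points are the lowest of the 4 lines.

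C1orf116, also known as the specifically androgen-regulated gene, is on chromosome 1 (GRCh37, positions 207191867 to 207206101). The WT line had 18.7 CPM in Veh and 23.3 CPM in Dox, the K450R line 16.0 and 35.8 CPM, the K451R line 30.0 and 57.6 CPM, and the K450RK451R line 32.9 and 51.0 CPM. It was higher with Dox in all 4 lines, but the Veh level of K450RK451R exceeded the Dox level of WT, so the groups overlapped without regard to line. The shared log2 fold change was 0.76 (SE 0.104, edgeR adjusted p = 4.65e-05). On the log2 scale the within-line ratio was 0.31 for WT, 1.15 for K450R, 0.94 for K451R and 0.63 for K450RK451R.

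PMEPA1 encodes a membrane protein that dampens TGF-β signalling, and lies on chromosome 20 from 56223448 to 56286592. Veh and Dox levels were 39.8 and 43.8 CPM for WT, 36.9 and 73.3 CPM for K450R, 43.4 and 82.1 CPM for K451R, and 51.6 and 77.1 CPM for K450RK451R. All 3 mutant Dox libraries were above every Veh library, while WT Dox lay within the Veh range. The shared log2 fold change was 0.66 (SE 0.0954, edgeR adjusted p = 0.000108). In WT the 95% exact interval of the log2 ratio, which covers counting error only, ran from −0.059 to 0.33 and included 0, while in K450R it ran from 0.79 to 1.19.

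Among the 14 surface and secreted members, all had a log2 fold change above 0 with Dox (median 0.14), as did 7215 of all 14105 genes. Of these members 2 were called higher, against 0.603% of all genes. TMPRSS2, a transmembrane serine protease on chromosome 21 from 42836227 to 42903043, was at 1184, 1018, 1182 and 1069.9 CPM in WT, K450R, K451R and K450RK451R Veh and at 1273, 1202, 1431 and 1276 CPM in Dox. Each Dox library exceeded the 4 Veh libraries, with a log2 fold change of 0.22 (SE 0.0512, edgeR adjusted p = 0.0177). Part of its exons overlaps MX1 on the other strand, and the use of strand in counting is not given in the sources used here. SLC45A3, on chromosome 1 from 205626979 to 205649637, was at 289.9 and 290.0 CPM in WT Veh and Dox, 270.3 and 342 CPM with K450R, 332 and 418 CPM with K451R, and 297 and 351 CPM with K450RK451R. It was level in WT and higher in each mutant line, with a shared log2 fold change of 0.23 (SE 0.058, edgeR adjusted p = 0.0329).

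Other surface and secreted members had an unadjusted p under 0.05 without passing the adjustment. STEAP2, a metalloreductase, had a log2 fold change of 0.18 (edgeR adjusted p = 0.0999) with 236, 247, 255 and 253 CPM in the Veh libraries in the same order of lines, and 243, 298, 278 and 304 CPM in Dox. ADAMTS1, a secreted metalloprotease, had 0.17 (edgeR adjusted p = 0.116) with 238, 257, 319.7 and 344 CPM in Veh and 236, 292, 380.3 and 410.1 CPM in Dox, level in WT and higher in each mutant line. LRIG1, which restrains receptor tyrosine kinases, had 0.15 (edgeR adjusted p = 0.211), with 139, 145, 146 and 132 CPM in Veh and 158, 146, 163 and 154 CPM in Dox, and its exons overlap SLC25A26 on the other strand. Without WT, STEAP2 and ADAMTS1 passed the adjustment (edgeR adjusted p = 0.0253 and 0.0125), and over all alternatives their adjusted p ran from 0.0253 to 0.401 and from 0.0125 to 0.671. FOLH1, STEAP1, ABCC4, the ion channel TRPM8, the pyrophosphate regulator ANKH and the receptor BMPR1B had log2 fold changes between 0.0030 (BMPR1B) and 0.11 (STEAP1), none past the test. ACPP, prostatic acid phosphatase, had 0.14 with ratios from −0.24 in K450R to 0.46 in WT. STEAP1 and ABCC4, among the most abundant members, were at 91.0, 94.8, 99.8 and 92.0 CPM and at 668, 678, 709.7 and 647 CPM in Veh, and at 90.3, 107, 108 and 104 CPM and 713, 732, 713 and 665 CPM in Dox. OPRK1, the kappa opioid receptor, had 22, 13, 12 and 5 counts in Veh and 15, 13, 29 and 24 in Dox, and STEAP4, a metalloreductase, at most 26 counts per library. OPRK1 was also on the list of androgen-repressed genes examined here. Its sign is therefore not to be read as that of an androgen-induced gene. No androgen was withdrawn or added, so the direction in which each other member responds to androgen was not measured. The log2 fold change of OPRK1 was 0.46 (SE 0.371), and that of STEAP4 0.40 (SE 0.389). Leaving out 1 line moved OPRK1 between 0.15 (without K450RK451R) and 0.71 (without WT).

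Of the 5 members in transcription and receptor control, only MAF was called. MAF, a basic leucine zipper factor on chromosome 16 from 79619740 to 79634634, stood in Veh and Dox at 6.84 and 10.3 CPM for WT, 8.88 and 13.1 CPM for K450R, 17.7 and 24.3 CPM for K451R, and 12.4 and 17.7 CPM for K450RK451R. The differences between lines were larger than those between treatments, yet the within-line log2 ratios were close together at 0.57, 0.55, 0.45 and 0.51. The shared log2 fold change was 0.52 (SE 0.131, edgeR adjusted p = 0.0317), on 81 and 91 counts in the shallowest pair. ZBTB16, a zinc finger repressor, went the other way, from 131, 133, 114 and 131 CPM in Veh to 119.7, 123, 99.5 and 108 CPM in Dox. It was lower in each line, with a log2 fold change of −0.18 that missed the adjustment (edgeR adjusted p = 0.12). FKBP5 (log2 fold change 0.10), the elongation factor ELL2 (0.044) and its partner EAF2 (−0.42, with 30, 24, 29 and 30 counts in Veh and 9, 13, 43 and 38 in Dox) did not pass the test.

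**Figure D2:**
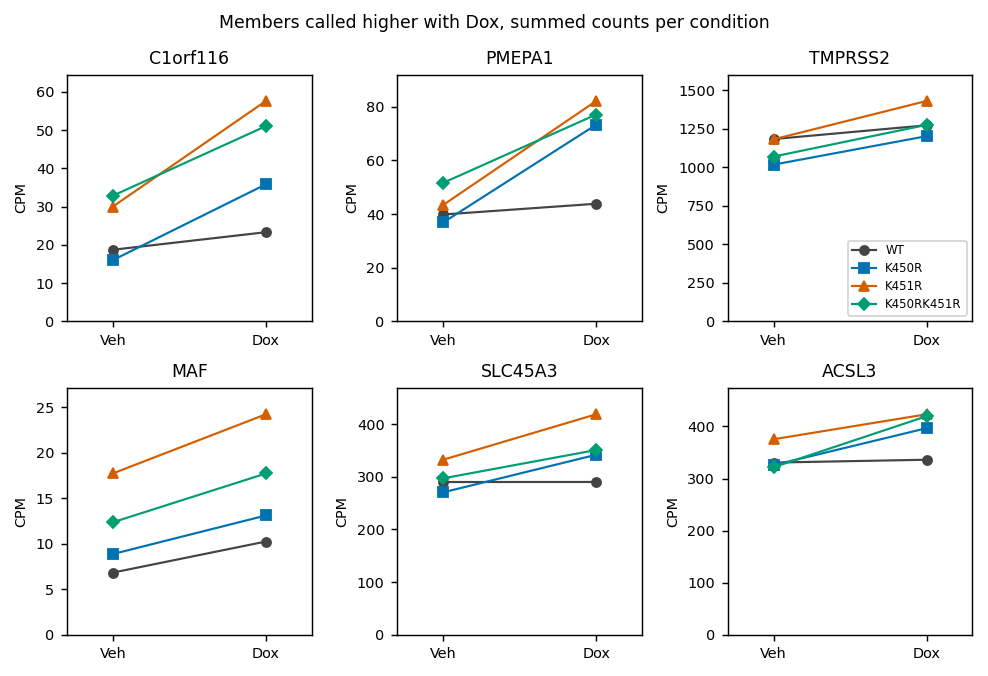
Normalised CPM (y axis, from 0) in Veh and Dox of each line for the 6 members called higher with Dox, 1 summed library per point. The WT line is flat for SLC45A3, from 289.9 to 290.0 CPM, and the 4 lines of MAF are nearly parallel at different heights.

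The 7 metabolic members included 1 called gene. ACSL3, which activates long-chain fatty acids and lies on chromosome 2 from 223725660 to 223809357, stood in Veh and Dox at 331 and 336 CPM for WT, 326 and 397 CPM for K450R, 375 and 423 CPM for K451R, and 322 and 419.6 CPM for K450RK451R. The mutant Dox libraries were above all Veh libraries and WT Dox was not, with a shared log2 fold change of 0.22 (SE 0.0573, edgeR adjusted p = 0.0409). GNMT, which uses S-adenosylmethionine to methylate glycine, had 12.8 and 12.6 CPM with WT, 11.5 and 6.83 CPM with K450R, 9.48 and 8.22 CPM with K451R, and 12.5 and 9.37 CPM with K450RK451R, lower in Dox each time. Its log2 fold change was −0.32 (edgeR adjusted p = 0.347). The prostaglandin dehydrogenase HPGD (0.17), the amino sugar enzyme UAP1 (0.032), the acyl-CoA binding protein DBI (0.023), sorbitol dehydrogenase SORD (0.014) and the retinaldehyde dehydrogenase ALDH1A3 (−0.056) did not pass the test.

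Apart from PMEPA1, the signalling members gave no call. SGK1, a kinase downstream of PI3K, had 20, 12, 9 and 11 counts in Veh and 16, 14, 19 and 35 in Dox, with a log2 fold change of 0.51 and an SE of 0.356. Leaving out 1 line moved it between 0.19 (without K450RK451R) and 0.68 (without WT). INPP4B, a phosphoinositide phosphatase, was higher with Dox in all 4 lines, from 7.51, 7.28, 7.17 and 6.80 CPM to 9.58, 10.5, 8.06 and 8.37 CPM. No Dox library of INPP4B overlapped the Veh range, and its log2 fold change of 0.34 (SE 0.168) missed the test (edgeR adjusted p = 0.366). The scaffold proteins IQGAP2 and PPFIBP2, the ubiquitin ligase HERC3 and the kinase CAMKK2, which activates AMPK, had values between −0.020 and 0.083. Of the remaining members, the kinetochore protein CENPN (0.073), the endoplasmic reticulum anchor VAPA (−0.0049), the trafficking protein TPD52 (−0.041) and the condensin subunit NCAPD3 (−0.084) did not pass the test either.

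Within single lines, where there was 1 sample per condition and therefore no test, few members moved by 1.5-fold or more. In WT no member was that much higher (background 4.24% of all genes) and 1 was that much lower (5.92%), EAF2, on 30 and 9 counts. In K450R 2 were higher (6.36%), C1orf116 and PMEPA1, and 2 lower (5.38%), GNMT and EAF2. In K451R 3 were higher (5.43%), C1orf116, PMEPA1 and OPRK1, and 0 lower (5.42%). In K450RK451R 4 were higher (7.64%), C1orf116, OPRK1, SGK1 and STEAP4, and 0 lower (5.13%). The last 3 of these had at most 35 counts per library. The median log2 ratio of the members was 0.050 for WT, 0.080 for K450R, 0.12 for K451R and 0.098 for K450RK451R, against medians of 0.00096 to 0.0086 over all genes. Of the 38 members, 25 to 28 lay above 0 in each line, as did 7068 to 7237 of the 14105 genes. Scaled by library size alone, 26 to 35 members lay above 0. The median over all genes was then itself shifted, to 0.041, 0.033, 0.13 and 0.14 in the same order of lines.

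The mutant lines were compared with WT to ask whether the form of EHMT1 changed the response. No member passed the test of the interaction (edgeR adjusted p under 0.05, 0 of 38, against 0.163% of all genes). With limma-voom the count was also 0, and so it was with DESeq2, which gave an adjusted p for 706 genes only. At an unadjusted p under 0.05 there were 5 members, PMEPA1, SLC45A3, C1orf116, ACSL3 and ADAMTS1, all with a larger response in the mutant lines (13.2%, against 3.62% of all genes in this direction). PMEPA1 had the smallest p, with a difference of 0.68 on the log2 scale (SE 0.183, edgeR adjusted p = 0.188). It passed the test when K450RK451R was left out (edgeR adjusted p = 0.00699), with a range of 0.00699 to 0.739 over all alternatives. For C1orf116 the difference was 0.56 (SE 0.231, edgeR adjusted p = 0.59) and for SLC45A3 0.30 (SE 0.112, edgeR adjusted p = 0.544). Sparse members had wider differences with larger errors, 1.05 (SE 0.814) for EAF2, 0.85 (SE 0.828) for OPRK1 and 0.59 (SE 0.813) for SGK1. WT was a single pair of libraries, assumed to vary like the mutant lines. The summed hypoxia and density genes were nearly level in WT and lower with Dox in each mutant line. In Veh and Dox they were at 6586 and 6559.8 CPM for WT, 6535 and 5677 CPM for K450R, 5699 and 4679.5 CPM for K451R, and 5615 and 4539 CPM for K450RK451R. Of 9 such genes tested, 4 were called lower with Dox (background 1.51%), VEGFA, ANKRD37, SLC2A1 and KDM3A, with log2 fold changes between −0.59 and −0.32. ANKRD37 and SLC2A1 also passed the test of the interaction, with differences of −0.80 (SE 0.129) and −0.65 (SE 0.115) between mutants and WT. KDM3A (−0.28) and VEGFA (−0.21) did not pass it. Their part in the members' response was not tested.

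Knockdown of EHMT1 gave no call among the members. By edgeR's test 0 of 38 passed an adjusted p of 0.05 (background 0.131%, 19 genes), and 0 did with DESeq2 or limma-voom. At an unadjusted p under 0.05 edgeR gave 8 members (21.1%, against 9.55% of all genes), 4 higher (10.5%, against 4.46%) and 4 lower (10.5%, against 5.09%), DESeq2 6 and limma-voom 8. The median log2 fold change was −0.011, against −0.0021 over all genes, with 17 members above 0 and 21 below. The samples of the groups did not overlap in 7 members with siEHMT1 higher (18.4%, background 19.9%) and in 10 with siEHMT1 lower (26.3%, background 19.8%).

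**Figure D3:**
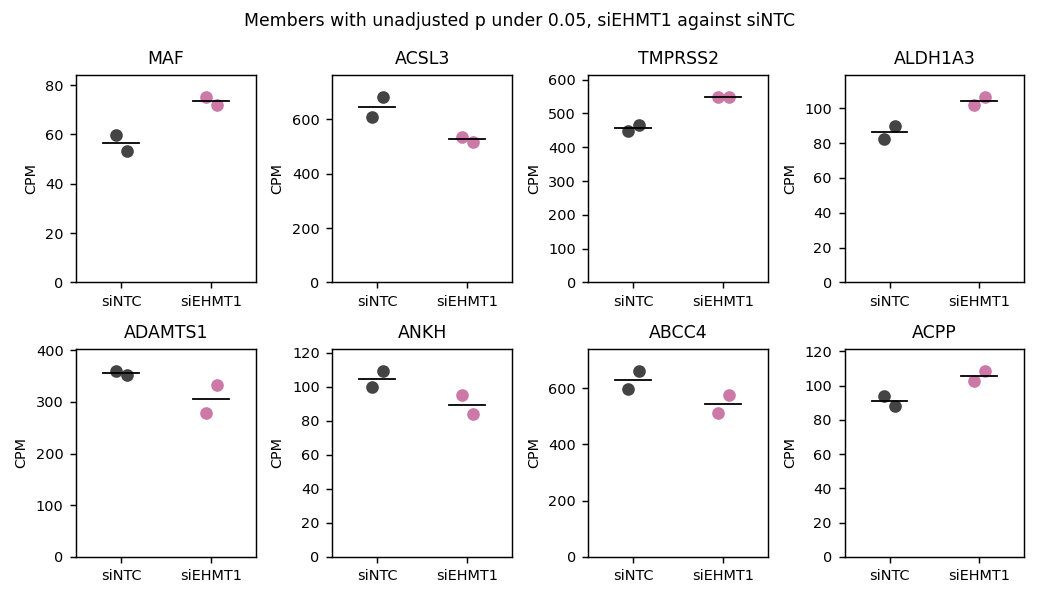
Normalised CPM (y axis, from 0) in each siNTC and siEHMT1 sample (points) with the group mean (line) for the 8 members with an unadjusted p under 0.05. MAF, TMPRSS2, ALDH1A3 and ACPP were higher with siEHMT1 and ACSL3, ADAMTS1, ANKH and ABCC4 lower, and the adjusted p of each was 0.192 or more by edgeR.

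MAF was at 59.6 and 53.4 CPM with siNTC and at 75.3 and 71.9 CPM with siEHMT1. Its siEHMT1 samples were both above the siNTC samples, with a log2 fold change of 0.38 (SE 0.105, edgeR adjusted p = 0.192), the smallest p among the members. TMPRSS2 was at 448 and 465 CPM with siNTC and at 549 CPM in both siEHMT1 samples. It was also higher without overlap, as were 19.9% of all genes (log2 fold change 0.27, SE 0.0868, edgeR adjusted p = 0.284). ALDH1A3, on chromosome 15 from 101417919 to 101456831, was at 82.6 and 89.9 CPM and then 102 and 107 CPM (log2 fold change 0.27, edgeR adjusted p = 0.335), and ACPP at 94.1 and 88.1 CPM and then 103 and 109 CPM (0.21, edgeR adjusted p = 0.488). ALDH1A3 shares exon bases with an antisense gene, ALDH1A3-AS1.

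ACSL3 was the lower member with the smallest p. It was at 607 and 683 CPM with siNTC and at 534 and 518 CPM with siEHMT1, without overlap (log2 fold change −0.29, SE 0.0917, edgeR adjusted p = 0.265). ADAMTS1 was at 359.8 and 353 CPM and then 278 and 333 CPM (−0.22, edgeR adjusted p = 0.451). ANKH was at 99.8 and 109 CPM and then 95.2 and 83.8 CPM (−0.22, edgeR adjusted p = 0.482), and ABCC4 at 595 and 661 CPM and then 509.9 and 575 CPM (−0.21, edgeR adjusted p = 0.484). All 4, taken for an unadjusted p under 0.05, were lower in both siEHMT1 samples than in either siNTC sample, as were 19.8% of all genes.

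Among the other abundant members, SLC45A3, STEAP1 and STEAP2 overlapped between the groups after knockdown. FOLH1 was higher with siEHMT1 without overlap, and UAP1 and CENPN were lower without overlap, none with an edgeR unadjusted p under 0.05. SLC45A3 was at 579.7 and 567 CPM with siNTC and 602 and 567 CPM with siEHMT1, STEAP1 at 177 and 241 against 181 and 185 CPM, and STEAP2 at 518 and 579 against 514 and 537 CPM.

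The members with the widest fold changes after knockdown were OPRK1, STEAP4, SGK1, MAF and INPP4B, and OPRK1, STEAP4 and SGK1 had at most 54 counts per library. The siNTC samples held 13 and 6 counts of OPRK1 and the siEHMT1 samples 2 and 12 (log2 fold change −0.95, SE 0.649), against 23 and 24 and then 47 and 54 counts of STEAP4 (0.52, SE 0.349), and 17 and 12 and then 22 and 38 counts of SGK1 (0.50, SE 0.398). INPP4B was at 13.3 and 18.2 CPM and then 21.8 and 17.2 CPM (0.32, SE 0.182). After scaling to library size the groups overlapped for STEAP4, SGK1 and INPP4B, and none of these genes passed the test. Dropping single samples moved the log2 fold change over a range from −2.45 (without siEHMT1 replicate 2) to −0.34 (without siEHMT1 replicate 1) for OPRK1, from −0.049 (without siNTC replicate 1) to 1.07 (without siNTC replicate 2) for STEAP4, from 0.19 (without siNTC replicate 1) to 0.74 (without siNTC replicate 2) for SGK1, and from 0.094 (without siNTC replicate 1) to 0.54 (without siNTC replicate 2) for INPP4B. C1orf116 and PMEPA1, the members that rose most with Dox, were at 198 and 169.8 CPM and at 220.4 and 209 CPM with siNTC and at 181 and 202 CPM and at 206 and 209 CPM with siEHMT1. Their log2 fold changes after knockdown were 0.056 (SE 0.0968) and −0.050 (SE 0.0868).

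Knockdown and overexpression share no control samples, so their signs could be set side by side. Of the 38 members, 15 were lower with siEHMT1 and higher with Dox (39.5%, against 27.9% of all genes tested in both), and 3 were higher with siEHMT1 and lower with Dox (7.89%, against 25.5%). A further 14 were higher with both (36.8%, against 23.6%) and 6 lower with both (15.8%, against 23.0%). Among the 29 members above 0 with Dox, the knockdown sign was thus split 15 to 14, and the larger shares follow the skew of the Dox signs. These counts rest on signs alone, most of members that passed no test. ACSL3 and ADAMTS1 had opposite signs in the knockdown and with Dox, whereas MAF and TMPRSS2 were higher with both.

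**Figure D4:**
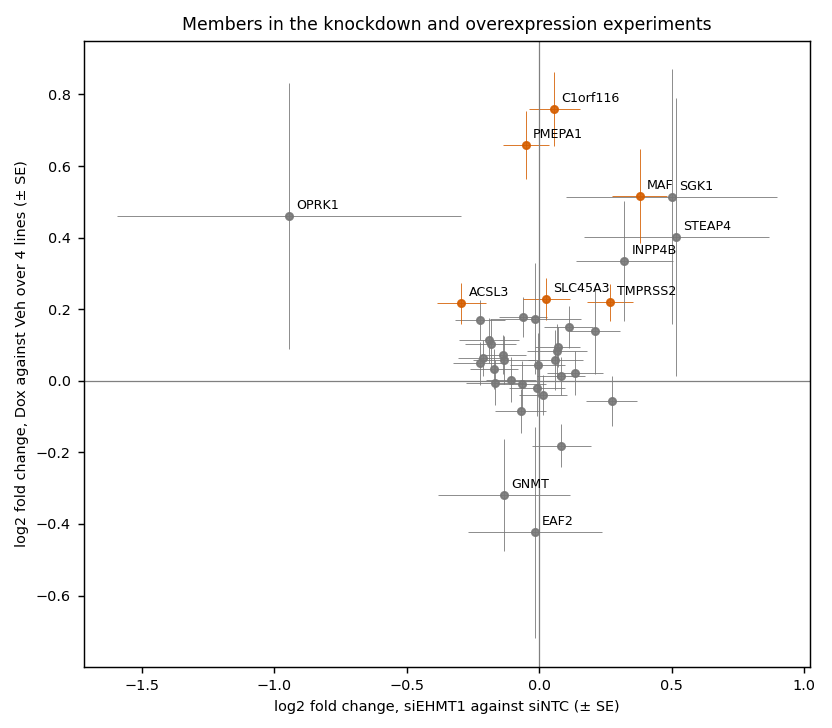
Log2 fold change of each of the 38 members after knockdown (x axis, siEHMT1 against siNTC) and after induction (y axis, Dox against Veh over the 4 lines), with standard errors from edgeR. The 6 members called with Dox are coloured; MAF and TMPRSS2 lie to the upper right, ACSL3 to the upper left, and C1orf116 and PMEPA1 near 0 on the x axis.

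Regulators and related genes were examined as lists. Among the lineage factors, the pioneer factor FOXA1 (log2 fold change 0.36, edgeR adjusted p = 0.000418) and the homeobox factor HOXB13 (0.19, edgeR adjusted p = 0.0492) were called higher with Dox. GATA2, a zinc finger factor of luminal cells, was called lower (−0.21, edgeR adjusted p = 0.0484). FOXA1 was higher in all 4 lines, by log2 ratios of 0.20, 0.47, 0.35 and 0.41, and GATA2 was at 0.0016 in WT and at −0.15, −0.30 and −0.39 in the mutant lines. Of 8 steroid receptor chaperones, HSP90AA1 was lower (−0.37, edgeR adjusted p = 0.000486). Of the androgen-repressed genes, the chemokine receptor ACKR3 was higher (0.45, edgeR adjusted p = 0.0339). None of 12 coregulators, 7 tested enzymes of androgen synthesis or inactivation, 1 tested other steroid receptor (of 5) or 4 kallikreins was called with Dox, and KLK3, prostate-specific antigen, had a log2 fold change of 0.021. KLK2 and KLK4, named after their values were seen, were lower with Dox in all 4 lines (log2 fold changes −0.11 and −0.20, edgeR adjusted p = 0.308 and 0.117), and KLK15 was at 0.013. No gene of these lists was called after knockdown.

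Genes with the pattern most like C1orf116 over 6 values, its 4 within-line Dox ratios and 2 knockdown ratios, were FAM84B (Pearson r = 0.999), SUPV3L1 (0.998), ZNF503 (0.997), KIAA1462 (0.993) and GPR153 (0.987). These are the highest of all genes tested in both experiments, and no p is given. The correlation compares how the 6 values vary and takes no account of their level or sign. Its 2 knockdown ratios (−0.13 and 0.25 for C1orf116) join siRNA samples by their number, which the labels do not call a pairing. The other way of joining them was not tried. FAM84B was above 0 in the 4 lines (0.046 to 0.54), whereas SUPV3L1, ZNF503 and KIAA1462 were below 0 in WT (−0.047, −0.22 and −0.0058) and above 0 in the mutant lines, and GPR153 was below 0 in all 4 lines (−0.29 to −0.0076). Among the members PMEPA1 came closest (0.974), followed by FKBP5 (0.905), ADAMTS1 (0.887) and SLC45A3 (0.884), while ALDH1A3 (−0.838) and GNMT (−0.797) were the most opposed.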

How the data were processed

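RNA-seq of 20 LNCaP samples in 10 groups was used. The authors deposited 2 tables of raw counts of reads per Ensembl gene, without normalization. Libraries came from a stranded total RNA kit and reads were mapped to hg19. The submitters' processing notes name FastQC 0.11.9, STAR 2.7.2 and featureCounts 1.6.4. The annotation release and strand setting are not given in the sources used here. Positions and exon lengths came from GENCODE 44 on GRCh37, and promoters from RefSeq (GRCh38.p14).

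R 4.3.3 with edgeR 4.0.16 was used (TMM, filterByExpr, quasi-likelihood test with legacy set to false, Benjamini-Hochberg over all 14532 or 14105 genes tested). Paired stable-line columns were summed because they differed by counting noise only (chi-square over genes, divided by its degrees of freedom, 0.995 to 1.02). This ratio was 61.6 for siNTC and 13.4 for siEHMT1. A call is an adjusted p under 0.05, or within a line a 1.5-fold change, where log2 ratios use a prior count of 2 and exact 95% intervals for counting error only. Levels are normalised CPM, and RPKM where genes are compared. The members and lists were chosen with earlier results of these data known. In the comparison concerned, values per sample are given for members called, with an unadjusted p under 0.05, among the 5 widest changes or past 1.5-fold on at least 100 counts, and for the most abundant members, and among other lists only called genes, FOXA1, KLK3 and EHMT1 are named, and some genes of these lists are not reported here. Alternatives were DESeq2 1.42.0, limma-voom (limma 3.58.1), other scalings and filters, the legacy method, a replicate block and leaving out samples or lines. On simulated counts edgeR recovered 81.2% of 2-fold changes in the siRNA design, 89.9% in the Dox design and 47.5% between mutants and WT, and 52.5%, 67% and 20.6% of changes of 0.58 on the log2 scale. These counts were drawn once, with dispersions from the fitted trend, no other differences between lines and the same fold in each line that changed. Changes that differ in size between lines were not simulated.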

Additional observations from a re-analysis of the deposited data

How the results depend on the processing

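The count of 6 members called with Dox became 3 with DESeq2, where MAF, SLC45A3 and ACSL3 missed an adjusted p of 0.05, 2 to 8 with each line left out in turn, and 0 without line as a term. It stayed at 5 or 6 under limma-voom, upper-quartile scaling, both filters and the legacy method. The count of 0 between mutants and WT ranged from 0 to 1 with a mutant line left out, and could not be fitted without WT. The count of 0 after knockdown stayed 0 in all 12 alternatives, including a replicate block (0 members) and without the 2 pseudogenes. Same-numbered siRNA samples deviated with a correlation of −0.0023 over genes, which gave no sign of a pairing. The replicate block nonetheless called 118 of all genes, against 19 without it, so whether the numbers pair the samples was not settled. With the block the edgeR adjusted p was 0.0517 for MAF, 0.0912 for ACSL3 and 0.125 for TMPRSS2. STEAP4 after knockdown, 0.52 on the log2 scale, ranged from −0.049 (without siNTC replicate 1) to 1.07 (without siNTC replicate 2). Members past 1.5-fold were 1 in WT, but 2 with upper-quartile scaling, 3 by library size alone and 1 to 2 with 1 column left out. At 2-fold the count was 1 for K450R, 0 for K451R and 2 for K450RK451R. With 1 column left out, the 1.5-fold count ranged from 3 to 6 for K450R (4 in full), from 2 to 4 for K451R (3 in full) and was 2 for K450RK451R (4 in full) whichever column was dropped. By library size alone the median of all genes shifted to 0.13 in K451R and 0.14 in K450RK451R, and that of the members to 0.25 and 0.24. Depth limits OPRK1, STEAP4, SGK1 and EAF2, with at most 43 counts in a stable-line library. For single members, 324 values kept their direction and side of the threshold, 22 lost the call and 3 gained it. The direction was reversed in 1 value, that of STEAP4 after knockdown without siNTC replicate 1. The causes of these changes were not tested.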
